A study of Homo sapiens with 5 samples.

Results

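S100 genes encode small calcium-binding proteins, and the 10 genes described here were S100A1, S100A2, S100A3, S100A4, S100A6, S100A10, S100A11, S100A13, S100A16 and S100B. The list names them by symbol and sets no threshold on a measured value, though it was drawn up with earlier results of these data known. All 10 were among the 31029 genes listed for both cell lines. The study silenced BPTF, the largest subunit of the NURF chromatin-remodelling complex, in cells of the melanocyte lineage. RNA-seq counts were analysed for 2 libraries of 501Mel shBPTF cells, a human melanoma line, and 3 libraries of Hermes 3A shBPTF cells, a line of untransformed human melanocytes. Every library came from cells infected with a lentivirus carrying an shRNA against BPTF and selected with puromycin at 3 µg/ml for 5 days. The study used 2 different shRNAs against BPTF, and the labels do not say which of them each library carried. Cells with the control shRNA were not analysed here, so that all values describe BPTF-silenced cells, and the comparison made is Hermes 3A shBPTF against 501Mel shBPTF. Hermes 3A cells were grown with TPA, cholera toxin, stem cell factor and endothelin-1 and 501Mel cells in serum-containing medium without them, so that the cell line and its medium cannot be told apart. Each group was a single cell line, and the labels do not say whether its replicates came from separate infections, so that p-values measure only the spread between these libraries.

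S100 proteins bind calcium through EF-hand motifs, mostly act as dimers and, on binding calcium, expose a surface that docks onto other proteins such as annexins and cytoskeletal proteins. S100A10 is the exception that has lost calcium binding and is held in its active form in a complex with annexin A2. Most S100A genes lie in a cluster on chromosome 1 within the epidermal differentiation complex, while S100B lies on chromosome 21. S100B is the S100 protein used as a tissue and serum marker of the melanocyte lineage, and S100A4 and S100A6 have been studied in melanoma for their link to motility and spread.

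RefSeq promoters, from 250 bases before to 50 bases after the start site, were found for 9 of the 10 genes on GRCh38.p14, with 13 promoters in all. Promoters are shown for S100A6, S100A10 and S100A11, which had the most counts in Hermes 3A cells, and for S100A4. These genes differed between the cell lines. S100A13 also differed, and its promoters are not printed. Capitals mark the GC box GGGCGG and the TATA box TATAAA, which were searched on both strands.
S100A6, chr1:153535942-153536241, minus strand: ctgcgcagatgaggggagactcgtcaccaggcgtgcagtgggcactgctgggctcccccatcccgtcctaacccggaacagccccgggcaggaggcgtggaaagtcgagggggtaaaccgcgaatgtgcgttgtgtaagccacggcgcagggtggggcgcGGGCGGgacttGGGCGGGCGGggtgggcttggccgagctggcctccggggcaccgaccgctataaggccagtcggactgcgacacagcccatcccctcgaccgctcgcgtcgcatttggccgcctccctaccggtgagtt
S100A10, chr1:151993810-151994109, minus strand: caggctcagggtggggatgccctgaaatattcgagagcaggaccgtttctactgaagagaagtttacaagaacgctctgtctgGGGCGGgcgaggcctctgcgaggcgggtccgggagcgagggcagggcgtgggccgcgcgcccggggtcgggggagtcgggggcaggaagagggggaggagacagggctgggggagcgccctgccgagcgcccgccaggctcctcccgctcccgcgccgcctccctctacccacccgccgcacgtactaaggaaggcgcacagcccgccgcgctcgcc
S100A11, chr1:152036955-152037254, minus strand: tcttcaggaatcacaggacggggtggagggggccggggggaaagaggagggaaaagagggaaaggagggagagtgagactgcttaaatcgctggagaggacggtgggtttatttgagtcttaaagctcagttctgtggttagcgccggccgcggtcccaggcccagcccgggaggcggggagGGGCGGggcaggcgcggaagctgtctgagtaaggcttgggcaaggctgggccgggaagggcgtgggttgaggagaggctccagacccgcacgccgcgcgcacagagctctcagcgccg
S100A4, chr1:153545757-153546056, minus strand: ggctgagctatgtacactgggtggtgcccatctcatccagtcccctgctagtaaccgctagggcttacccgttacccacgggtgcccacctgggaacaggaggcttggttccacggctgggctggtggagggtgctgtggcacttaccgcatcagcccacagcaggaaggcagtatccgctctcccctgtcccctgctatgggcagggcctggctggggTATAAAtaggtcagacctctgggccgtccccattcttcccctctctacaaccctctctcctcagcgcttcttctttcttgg

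The promoters of S100A6, S100A10 and S100A11 held 31, 32 and 22 CpG dinucleotides, above the median of 14 over the 35116 promoters of the table. The S100A4 promoter held 8. GGGCGG matched 3 times in the S100A6 promoter, where the last 2 matches overlap, once in that of S100A10 and once in that of S100A11. It was present in 6 of the 13 promoters of the list and in 45% of all promoters. The S100A4 promoter held TATAAA 31 bases before the start site, and a promoter of S100A13, a gene called higher in Hermes 3A cells, held it 29 bases before. The motif was found in 2 of the 13 promoters of the list and in 11.5% of all promoters. The other promoters of the list had between 3 CpG (S100A16) and 19 CpG (S100A13). Of the E-boxes bound by MITF, CACGTG matched in none of the 13 promoters and in 7.26% of all promoters, and CATGTG matched in 2 of the 13, a promoter each of S100A13 and S100A16, and in 11.1% of all promoters. These matches describe the letters of the window only, since no binding was measured here.

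In these libraries the counts on S100 genes were mostly those of S100A11, S100A10 and S100A13, joined in Hermes 3A cells by S100A6. Whether the S100A6 counts of 0 in 501Mel cells reflect the RNA of the cells was not tested, so that the 501Mel shares hold for the counts as listed. Counts on S100A6, S100A10, S100A11 and S100A13 together made up between 76.1% and 88.7% of the counts on the 10 genes in 501Mel cells and between 96.9% and 98.4% in Hermes 3A cells. The 10 genes took 0.0211% and 0.0126% of all counts in 501Mel cells, against 0.117%, 0.12% and 0.0976% in Hermes 3A cells. Without S100A6 the Hermes 3A shares were 0.0713%, 0.0683% and 0.0577%, still above both 501Mel libraries. The libraries had been treated with a duplex-specific nuclease, which lowers abundant cDNAs, so that shares of the library understate the most abundant mRNAs.

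**Figure D1:**
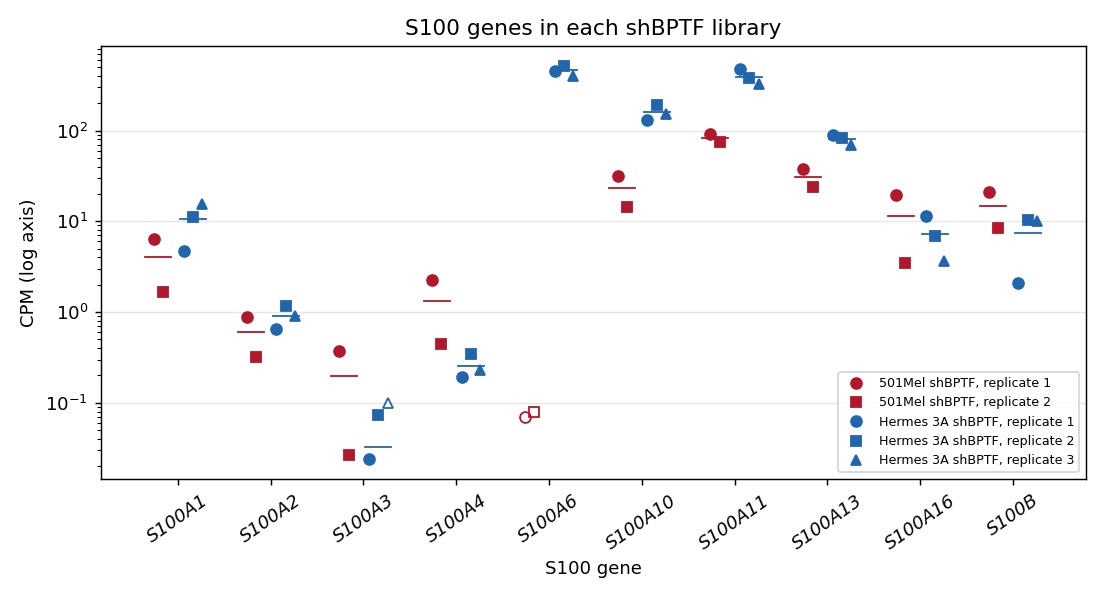
Level of the 10 S100 genes in each shBPTF library, in CPM (the count of a gene relative to all counts of its library) on a log axis. Filled marks are libraries, lines are group means, and open marks are libraries with a count of 0, drawn at the level of 3 counts. S100A6 is at 0 in both 501Mel libraries and between 399 and 519 CPM in the 3 Hermes 3A libraries.

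To compare levels between genes, the CPM was divided by the median transcript length in kb. Because the nuclease lowers abundant cDNAs, differences in level between genes may be understated here. Fold differences of abundant genes between the lines may be understated too, which was not tested. In 501Mel cells S100A11 was highest at 144 CPM per kb, followed by S100A13 at 48.7, S100A10 at 44.2, S100B at 16.9, S100A16 at 11.9, S100A1 at 6.8, S100A4 at 2.35, S100A2 at 0.958 and S100A3 at 0.278 CPM per kb. In this order the libraries of S100A11 lay apart from those of S100A13, and those of S100A10 apart from those of S100B, while the other neighbours from S100A13 down to S100A3 overlapped. In Hermes 3A cells S100A6 and S100A11 were the highest at 689 and 680 CPM per kb, and their libraries overlapped. S100A10 followed at 305 and S100A13 at 127 CPM per kb, each apart from its neighbours. S100A1 at 17.7, S100B at 8.53 and S100A16 at 7.64 CPM per kb overlapped, whereas S100A2 at 1.45, S100A4 at 0.449 and S100A3 at 0.0453 CPM per kb lay apart from each other. With the summed length of all exons in place of the transcript length, S100A11 came before S100A6 in Hermes 3A cells (576 and 472 CPM per kb) and S100A10 before S100A13 in 501Mel cells (14.9 and 13.9 CPM per kb).

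Of the 10 genes, 9 passed the filter on low counts and were tested. S100A6, S100A10, S100A11 and S100A13 were higher in Hermes 3A than in 501Mel cells, S100A4 was lower, and S100A1, S100A2, S100A16 and S100B did not pass the test. A gene was called with edgeR's quasi-likelihood test at a Benjamini-Hochberg adjusted p of 0.05 over all 17918 genes tested and at least a 2-fold difference. By this rule 17.1% of all tested genes were higher in Hermes 3A cells and 17.2% were lower, against 4 and 1 of the 9 S100 genes. Groups that did not overlap were as frequent as 31.9% (higher) and 38.0% (lower) of all tested genes, and the same 5 S100 genes had groups that did not overlap. S100A6 passed the filter through the Hermes 3A libraries alone. S100A4 passed it through the 501Mel libraries, since its Hermes 3A libraries would not have sufficed. With 9 genes nothing particular to the family can be read from these counts.

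**Figure D2:**
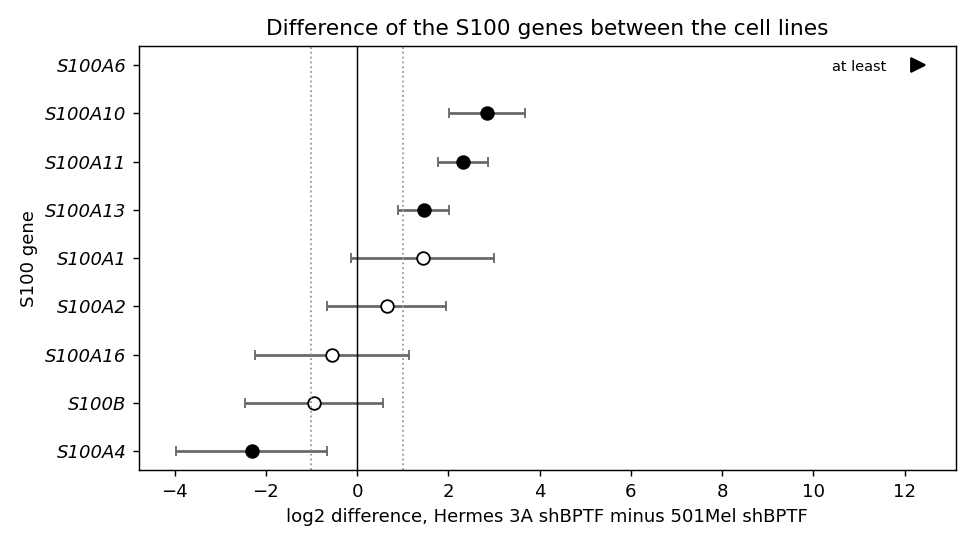
Log2 difference of the tested S100 genes, Hermes 3A shBPTF minus 501Mel shBPTF, from the edgeR fit. Bars are 95% confidence intervals, filled points passed the test, dotted lines mark a 2-fold difference, and the arrow for S100A6 marks a lower bound of 12.3. S100A10, S100A11 and S100A13 lie to the right of 0 at 2.85, 2.32 and 1.46, and S100A4 to the left at -2.31.

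S100A6 (calcyclin, ENSG00000197956), which binds the ubiquitin ligase adaptor CACYBP and several annexins, had 0 and 0 counts in 501Mel cells, against 19049, 21197 and 12012 counts in Hermes 3A cells. The gene was listed at 0 in both 501Mel libraries and at 12012 counts or more in each Hermes 3A library. The annotation used for counting is not given in the sources used here, and whether these zeros reflect the RNA of the cells or how reads were assigned to genes was not tested. The mean in Hermes 3A cells was 458 CPM ± 59.6 (SD, n = 3), and S100A6 ranked 274, 218 and 352 among all genes by CPM in the 3 libraries. A count of 0 allows up to 3 counts, or 0.0697 and 0.0792 CPM in the 501Mel libraries. Against that floor, taken per library, the S100A6 counts as listed were at least 5040-fold higher in Hermes 3A cells, or 12.3 on the log2 scale. The adjusted p of 9.22e-06 from edgeR's quasi-likelihood test belongs to the fitted difference and is no test of this bound. Since S100A6 passed the filter through the Hermes 3A libraries alone, higher was the only call open to it. The floor covers counting error only, and the bound holds only if the zeros are true counts.

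S100A6 was not alone in this pattern. Of 8339 genes with at least 500 counts in every Hermes 3A library, 19 (0.228%) were listed at 0 in both 501Mel libraries, S100A6 among them. The minimum of 500 counts was chosen after the S100A6 counts had been seen. The others included CDKN1A, the cell cycle inhibitor p21, at 31620 to 34023 counts in Hermes 3A cells, IGFBP7, a secreted growth factor binding protein, at 8298 to 9254, and UCHL1, a deubiquitinating enzyme, at 1976 to 7088. The antisense gene BX470102.1, which shares 23 exon bases with S100A6, had 0 and 0 counts in 501Mel cells, against 10, 18 and 8 in Hermes 3A cells. Whether the counting used strand is not given in the sources used here, so that reads within those shared bases cannot be assigned to either gene.

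S100A10 (p11, ENSG00000197747), the annexin A2 partner that helps place channels and plasminogen receptors at the plasma membrane, had 1369 and 540 counts in 501Mel cells, against 5435, 7868 and 4626 in Hermes 3A cells. All Hermes 3A libraries were above both 501Mel libraries, which themselves differed 2.23-fold in CPM. Means were 23.0 CPM ± 12.4 (SD, n = 2) and 159 CPM ± 31.3 (SD, n = 3). The log2 difference was 2.85 ± 0.351 (SE), or 7.20-fold (edgeR, adjusted p = 0.000806), and it was 3.53 without 501Mel replicate 1.

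S100A11 (calgizzarin, ENSG00000163191), which docks onto annexin A1 and acts in membrane repair and growth control, had 3922 and 2808 counts in 501Mel cells, against 19716, 15405 and 9744 in Hermes 3A cells. The groups did not overlap, and the replicates of S100A11 were the closest of the list in 501Mel cells, 1.23-fold apart in CPM. Means were 82.7 CPM ± 12 (SD, n = 2) and 391 CPM ± 75.7 (SD, n = 3). The log2 difference was 2.32 ± 0.231 (SE), or 4.98-fold (edgeR, adjusted p = 0.000343).

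S100A13 (ENSG00000189171), which takes part in the release of FGF1 and interleukin 1α from cells, had 1627 and 899 counts in 501Mel cells, against 3734, 3417 and 2060 in Hermes 3A cells. Every Hermes 3A library was above both 501Mel libraries. Means were 30.8 CPM ± 9.94 (SD, n = 2) and 80.6 CPM ± 10.9 (SD, n = 3), and the log2 difference was 1.46 ± 0.238 (SE), or 2.75-fold (edgeR, adjusted p = 0.00254). Its cargo genes FGF1 and IL1A had at most 27 and 4 counts in any library and were below the filter. S100A13 and S100A1 lie on opposite strands and share 235 exon bases, 10.6% of the S100A13 exons and 7.76% of those of S100A1, so that without strand part of the reads cannot be assigned to either gene.

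S100A4 (metastasin, ENSG00000196154), which binds non-muscle myosin IIA and promotes cell motility, was scarce in both lines, with 96 and 17 counts in 501Mel cells, against 8, 14 and 7 in Hermes 3A cells. The 501Mel libraries were both above the Hermes 3A libraries in CPM, the second by a small margin (0.449 against 0.343 CPM). S100A4 passed the filter on low counts through these 501Mel libraries, the group in which it was higher. Means were 1.34 CPM ± 1.26 (SD, n = 2) and 0.256 CPM ± 0.0779 (SD, n = 3), and the log2 difference was -2.31 ± 0.703 (SE), with an adjusted p of 0.0300 in edgeR's quasi-likelihood test. This call rested on 501Mel replicate 1, without which the difference was -0.75 (adjusted p = 0.468), and it was also lost without each of the Hermes 3A replicates 1, 2 and 3 (-2.14, -2.50 and -2.21, adjusted p = 0.0683, 0.0545 and 0.0814).

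S100A1 (ENSG00000160678), a regulator of calcium handling by ryanodine receptors and SERCA in muscle, had 276 and 63 counts in 501Mel cells, against 196, 459 and 470 in Hermes 3A cells. Hermes 3A replicate 1 lay between the 501Mel libraries in CPM, and the groups overlapped. Means were 4.04 CPM ± 3.36 (SD, n = 2) and 10.5 CPM ± 5.50 (SD, n = 3). The log2 difference was 1.43 with a 95% interval from -0.13 to 3.00 (edgeR, adjusted p = 0.113), and it passed the test without 501Mel replicate 1 (2.71, adjusted p = 0.0356) and without Hermes 3A replicate 1 (1.79, adjusted p = 0.0475).

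S100B (ENSG00000160307), the marker of melanocytic and glial cells that binds NDR kinases, had 913 and 317 counts in 501Mel cells, against 88, 420 and 302 in Hermes 3A cells. Hermes 3A replicate 1 had the lowest level, and the other Hermes 3A libraries lay between those of 501Mel. Means were 14.8 CPM ± 9.08 (SD, n = 2) and 7.48 CPM ± 4.65 (SD, n = 3). The log2 difference of -0.94 had an interval from -2.45 to 0.58 (edgeR, adjusted p = 0.264), which covers a difference of more than 2-fold as well as none, and without 501Mel replicate 1 it was -0.12.

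S100A16 (ENSG00000188643), a broadly expressed member whose role is less settled, had 834 and 131 counts in 501Mel cells, against 475, 279 and 111 in Hermes 3A cells. The 501Mel replicates, 5.60-fold apart in CPM, enclosed all 3 Hermes 3A libraries. The log2 difference was -0.55 with an interval from -2.24 to 1.13 (edgeR, adjusted p = 0.550), and its sign turned to 1.15 without 501Mel replicate 1.

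S100A2 (ENSG00000196754), a protein of epithelial cells, had 38 and 12 counts in 501Mel cells, against 27, 48 and 27 in Hermes 3A cells, with overlapping groups. Its log2 difference was 0.65 with an interval from -0.66 to 1.95 (edgeR, adjusted p = 0.369), and it was 1.56 without 501Mel replicate 1. S100A3 (ENSG00000188015), a protein of the hair cuticle, had 16 and 1 counts in 501Mel cells, against 1, 3 and 0 in Hermes 3A cells and was not tested.

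The S100 genes varied more between the 501Mel replicates than most genes did. Replicate 1 was above replicate 2 for all 8 tested S100 genes with counts in every library, with a median log2 ratio of 1.41, and at least 2-fold above it for 6 of them. Among the 16957 tested genes with counts in every library, 54.3% were higher in replicate 1, the median log2 ratio was 0.04, and 7.34% were at least 2-fold higher. S100A16 (2.49), S100A4 (2.31) and S100A1 (1.95) had the largest log2 ratios and S100A11 (0.30) the smallest. ANXA1, the annexin that binds S100A11, was also higher in replicate 1, with 1211 counts there and 108 in replicate 2. The other annexins of the partner list did not share a shift of that size. Their log2 ratios were -0.35 for ANXA2, -0.35 for ANXA5, -0.08 for ANXA6 and 0.28 for ANXA11. Markers moved between these replicates too. All 10 melanocyte lineage genes were lower in replicate 1, with summed levels of 13731 CPM and 21384 CPM in replicates 1 and 2. Of the fibroblast genes 7 of 8 were higher in replicate 1 (summed 19.2 CPM and 4.15 CPM), with COL1A1 at 281 and 28 counts and DCN at 7 and 4. The Schwann cell genes summed to 449 CPM and 372 CPM, with 5 of 6 higher in replicate 1, ERBB3 among them at 3874 and 177 counts, and MBP lower. Of the keratinocyte genes 2 of 5 were higher in replicate 1 (summed 36.8 CPM and 39.2 CPM). Their part in the S100 values was not tested.

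**Figure D3:**
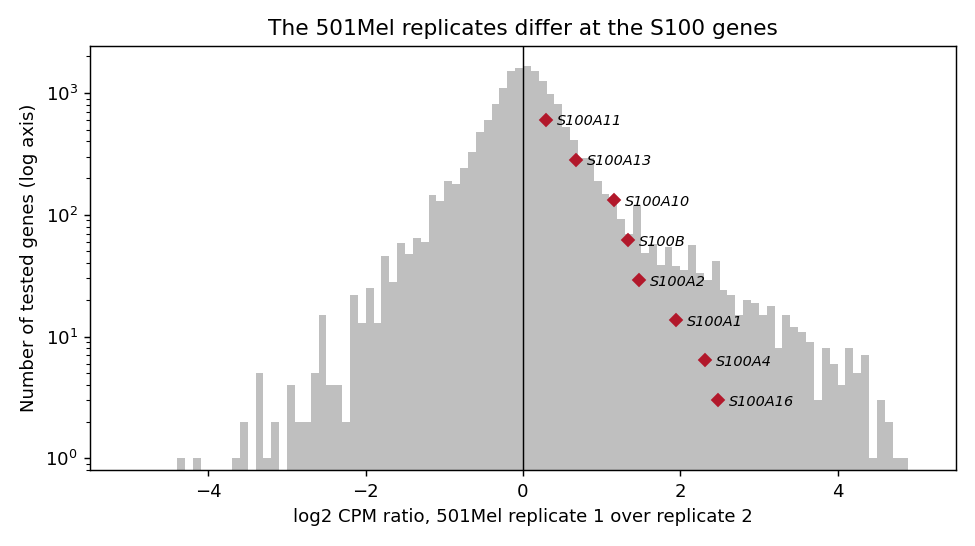
Log2 ratio of CPM between 501Mel shBPTF replicates 1 and 2 for 16957 genes (grey histogram, log axis of gene number) and for 8 S100 genes (red marks, whose height only separates them). All 8 S100 genes lie to the right of 0, from S100A11 at 0.30 to S100A16 at 2.49.

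Among the Hermes 3A replicates, S100B (4.86-fold between the highest and lowest CPM), S100A1 (3.32-fold) and S100A16 (3.09-fold) differed at least 2-fold, which is 3 of 8 S100 genes against 24.7% of all genes. S100A1, S100B, S100A10, S100A2 and S100A4 were lowest in replicate 1, whereas S100A16, S100A11 and S100A13 were highest there. S100A6, S100A13, S100A11 and S100A10 differed between 1.30-fold and 1.48-fold.

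Binding partners of S100 proteins form a list of 41 genes, of which 32 were tested. Of these, 6 were higher (18.8%) and 7 lower (21.9%) in Hermes 3A cells, against 17.1% and 17.2% of all tested genes, and the median log2 difference was -0.07 against -0.02 over all genes. AHNAK, the giant scaffold protein bound by S100A10 and annexin A2, had 3723 and 2211 counts in 501Mel cells, against 45516, 62723 and 43893 in Hermes 3A cells, a log2 difference of 4.29 ± 0.270 (SE, edgeR adjusted p = 5.69e-05). ANXA2 itself, with 25176 and 28200 counts in 501Mel cells, against 37856, 38542 and 24962 in Hermes 3A cells, had a log2 difference of 0.49 (adjusted p = 0.0606) and did not pass the test. Within a library, S100A10 counts were 0.0544 and 0.0191 of the ANXA2 counts in 501Mel cells, against 0.144, 0.204 and 0.185 of them in Hermes 3A cells.

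ANXA1 had 1211 and 108 counts in 501Mel cells, against 6807, 11900 and 7439 in Hermes 3A cells. Its log2 difference was 3.98 ± 0.868 (SE, edgeR adjusted p = 0.00832), and it ranged from 3.14 to 6.41 when each library was left out in turn. ANXA6, which binds S100A6 and S100A11, was higher by 1.65 ± 0.152 (SE, log2, adjusted p = 0.000249), while ANXA5 (-0.03) and ANXA11 (0.61) were not called. CACYBP, the calcyclin-binding protein, was lower, with a log2 difference of -1.06 ± 0.172 (SE, adjusted p = 0.00247) that fell short of 2-fold without 501Mel replicate 2 and without Hermes 3A replicate 2 or 3.

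The paralogues MDM2 and MDM4 differed in opposite directions. MDM2, a ubiquitin ligase, was higher in Hermes 3A cells, with 3100 and 1600 counts in 501Mel cells, against 12067, 15246 and 13085 in Hermes 3A cells (log2 2.74 ± 0.281 SE, edgeR adjusted p = 0.000380). MDM4, its relative, was lower (-1.13), and fell short of 2-fold without 501Mel replicate 2 or Hermes 3A replicate 3. Of the myosin heavy chains bound by S100A4, MYH9 was at 0.00 and not called, while MYH10 was lower (-1.11), short of 2-fold without 501Mel replicate 2. Of the S100A1-linked genes of calcium handling, the pump gene ATP2A2 was higher (1.24), and the ryanodine receptor gene RYR2 was called lower with 108 and 84 counts in 501Mel cells, against 2, 1 and 0 in Hermes 3A cells (edgeR, adjusted p = 0.000444), having passed the filter through 501Mel cells alone. NCL, which encodes nucleolin, was lower (-1.56). STUB1, a ubiquitin ligase that binds chaperones, was higher (1.19), though short of 2-fold once GC content was accounted for (0.60). Of the S100B partners, MAPT, which encodes tau, was lower (-2.73), and so was the NDR kinase gene STK38L (-1.0), whose call was lost without 501Mel replicate 1 and without Hermes 3A replicate 2 or 3. The other NDR kinase gene, STK38, lay the other way at 0.64, short of 2-fold and not called.

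A list of 19 further genes held other genes of the family, its fused-type relatives and S100PBP, which encodes a protein that binds S100P and is not itself an S100 gene. Of these, 8 were listed for both lines, 6 for a single line and 5 for neither. S100A8, S100A9 and S100Z, listed for 501Mel cells, were at 0 in both libraries, and S100G had 1 and 0 counts. S100A5, S100A14 and S100P had at most 5 counts in any library. The fused-type genes FLG, which encodes filaggrin of the cornified layer, and HRNR, hornerin, had 1 and 0 counts each in 501Mel cells. In Hermes 3A cells FLG had 1519, 897 and 870 counts and HRNR 59, 30 and 12, and both were called higher (edgeR, adjusted p = 4.24e-05 and 0.00438), with no fold given against so few counts. Like S100A6, both passed the filter through the Hermes 3A libraries alone and could only be called in that direction. FLG2 was called higher with 5 and 1 counts against 16, 13 and 7, and TCHH, trichohyalin, lower with 34 and 23 against 7, 10 and 5. Both of these calls were lost without 501Mel replicate 1, without 501Mel replicate 2 and without Hermes 3A replicate 3, and FLG2 fell below the filter without Hermes 3A replicate 1 or 2. Each passed the filter through the group in which it was higher, FLG2 through the Hermes 3A libraries and TCHH through the 501Mel libraries.

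The chromosome 1 interval that spans the S100A genes, from S100A10 to S100A1 with 200 kb on each side, holds 119 annotated genes in GENCODE 29, of which 110 are not on the list. Of these, 38 were listed for both lines and 18 were tested, and 6 were higher and 2 lower in Hermes 3A cells, by the rule that called 17.1% and 17.2% of all tested genes. Between the outermost S100 genes, 6 other genes were tested, and 5 were higher (FLG, FLG-AS1, FLG2, HRNR and BX470102.1) and 1 lower (TCHH). FLG, FLG-AS1, HRNR and BX470102.1 had at most 1 count in a 501Mel library and passed the filter through the Hermes 3A libraries, so that higher was the only call open to them. FLG2 also passed the filter through the Hermes 3A libraries alone, and TCHH passed it through the 501Mel libraries. These numbers are therefore no result about the interval. FLG-AS1, antisense to FLG, had 1 and 0 counts in 501Mel cells, against 920, 598 and 340 in Hermes 3A cells. Beyond them CHTOP, the chromatin protein gene next to S100A1, had 3513 and 2901 counts in 501Mel cells, against 2752, 2777 and 1924 in Hermes 3A cells, a log2 difference of -0.20 that was not called. NPR1, a natriuretic peptide receptor gene that also passed the filter through Hermes 3A cells, was called higher with 1 and 0 counts against 35, 17 and 13, and TDRKH lower (-1.73 ± 0.230 SE, adjusted p = 0.00110).

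Total counts were between 30073071 and 43032311 per library, and the targeted gene BPTF did not pass the test between the lines (61.8 CPM ± 5.65, n = 2, and 50.5 CPM ± 4.30, n = 3, SD, edgeR adjusted p = 0.211). Its knockdown could not be checked in these counts without control cells. The study itself showed the knockdown at the protein level by western blot in both lines. All 10 melanocyte lineage genes of the check list were tested and present in every library, with a summed level of 13731 to 21384 CPM in 501Mel cells and 32819 to 33784 CPM in Hermes 3A cells, although DCT (307 to 393 counts) and SLC45A2 (133 to 288 counts) were low in Hermes 3A cells. Summed levels of the markers of other cells were higher in the Hermes 3A libraries, though not for each gene. The 8 fibroblast genes summed to 4.15 to 19.2 CPM in 501Mel cells and 274 to 333 CPM in Hermes 3A cells, mostly COL1A2 and FAP, the 2 of 7 tested that were called, while DCN had at most 2 counts, COL3A1 at most 9 and COL1A1 at most 43 in a Hermes 3A library. The keratinocyte genes summed to 36.8 to 39.2 CPM and 161 to 178 CPM, with DSP, TP63 and CDH1 called higher, KRT10 not called and KRT1 and KRT5 listed for neither line. The Schwann cell genes summed to 372 to 449 CPM and 873 to 1824 CPM, with 3 of 6 called higher. Their part in the S100 values was not tested, and a change in the share of such cells and a change of RNA per cell cannot be told apart in bulk libraries.

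The difference between the lines also moved with GC content, from a median log2 of -0.31 for genes under 45% GC to 0.47 for genes above 60%. Transcripts of the S100 genes had between 51.0% GC (S100B) and 59.9% GC (S100A6). With the shift of each GC class removed, the log2 differences were 2.83 for S100A10, 2.28 for S100A11, 1.28 for S100A13 and -2.36 for S100A4, and the same genes were called.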

How the data were processed

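RNA was depleted of ribosomal RNA, normalised with duplex-specific nuclease and sequenced. The deposited values are raw counts of reads per gene, with Ensembl identifiers, made by the authors. The submitters' processing notes name CASAVA 1.8, TopHat 1.4.1, Bowtie 0.12.7 and hg19, while the counting program, annotation and strand setting are not given in the sources used here. Samples were grouped by cell line from their titles. Genes listed for both lines (31029) were kept, and 29317 of them were named with GENCODE 29. The 6230 genes listed only for 501Mel cells held at most 0.712% of a library and the 3004 only for Hermes 3A cells at most 0.120%.

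Groups were compared with edgeR 4.0.16 in R 4.3.3 (TMM, filterByExpr, glmQLFit and glmQLFTest) over 17918 genes, with Benjamini-Hochberg adjustment, and called at an adjusted p of 0.05 and 2-fold. SE is the log2 difference over the square root of the F statistic. The script was tested on simulated data. CPM used total counts. At these depths 3 counts equal 0.0697 to 0.0998 CPM. Replicate libraries differed beyond counting noise (chi-square of 19.4 or more for each gene on average), and none were merged. Alternatives were DESeq2 1.42.0, other size factors, no filter, a replicate block, leaving out each library and GC-bin offsets, the last chosen after seeing the data. All 10 S100 genes were named, with up to 12 called genes of each other list by mean CPM and partners beside their S100 gene. CHTOP, BX470102.1, RYR2, S100PBP, genes below the filter and the genes at 0 in 501Mel cells were named after their values were seen. Of the tested partners and markers, some are counted but not reported here. Members and lists were chosen with earlier results of these data known. Promoters and motifs are from RefSeq tables of GRCh38.p14, another build than the files, so that coordinates are given for the printed promoters only, and distances in the interval are those of GENCODE 29 on GRCh38.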

Additional observations from a re-analysis of the deposited data

How the results depend on the processing

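S100A10, S100A11 and S100A13 kept their direction and their call in all 12 alternative fits. The ranges were 2.41 to 3.53 for S100A10, 2.14 to 2.49 for S100A11 and 1.19 to 1.82 for S100A13 (log2). S100A6 kept both too, but with 0 counts in both 501Mel libraries no fit could have turned its direction, so that this is no check of it. The number of S100 genes called lower fell from 1 to 0 with the replicate block, and was 0 to 1 when each library was left out. S100A4 then had -1.91 (edgeR, adjusted p = 0.103 with the block). S100A1 was called with DESeq2 (1.45, adjusted p = 0.0438) and with edgeR without the filter (1.47, adjusted p = 0.0359). S100A16 reversed to 0.16 with the block and ranged from -1.30 to 1.15 when each library was left out. Of the list of 19 further genes, 1 was called lower in the comparison as reported, 0 with DESeq2, 0 with the block, 2 by adjusted p alone, and 0 to 1 when each library was left out. The gene added by adjusted p alone was S100PBP, which is not an S100 gene (log2 -0.80, edgeR adjusted p = 0.00568). Partner genes called lower went from 7 to 4 with the GC-bin offsets, where MDM4, CACYBP and STK38L fell short, and were 4 to 7 when each library was left out. Interval genes called lower went from 2 to 1 with DESeq2 and with the block, and were 1 to 3 when each library was left out. The cause of these changes was not tested.

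Deviations of same-numbered libraries correlated at 0.10 and 0.14 across 17918 genes. With only 2 shared numbers and no pairing in the labels, the numbers were taken as names. Over all genes the block gave 2909 higher and 2737 lower in place of 3057 and 3088, and total counts without TMM gave 2859 and 3262. The 2 libraries of 501Mel cells, which differ at these genes, limit the precision of every value.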
